A study of Homo sapiens with 12 samples.

Results

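The zinc finger genes of human chromosome 19 were followed in 2 leukemia cell lines after knockdown of the deubiquitinase USP15. The family was taken as every protein-coding gene of chromosome 19 whose symbol is ZNF with a number, plus ZIK1, that had a row in the count tables of both lines, which gave 231 genes of the 23238 listed in both tables. A further 3 genes by the same rule were in the KBM7 table only and 11 in the K562 table only, and these entered no comparison. The family was picked from the K562 data, in which ZNF850, ZNF416 and ZIK1 were higher with siUSP15, so every K562 value of siUSP15 against siCtrl is given as a description and only the other comparisons were tested.

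KBM7, a near-haploid line, and K562, an erythroid-leaning line, both stem from chronic myelogenous leukemia in blast crisis. Each line was transfected with lipid and with pooled siRNAs, which either target USP15 (siUSP15) or have no human target (siCtrl), and RNA was taken at 72 h. KBM7 gave 2 libraries for each siRNA pool and K562 gave 4. Neither the labels nor the study's methods say whether replicates were separate cultures, so p-values measure the spread between libraries only, and a single pool of siRNAs cannot separate the loss of USP15 from other targets of the pool. Bulk RNA also cannot tell fewer cells carrying an RNA from less of it in each cell.

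Most zinc finger proteins of chromosome 19 are repressors of transcription. Their C2H2 fingers, each a short loop held by a zinc ion between a pair of cysteines and a pair of histidines, lie in a row and read DNA, largely in retroelements, while a KRAB domain near the start of the protein recruits the corepressor TRIM28 and with it a machinery that lays down repressive chromatin. The genes arose by tandem duplication and stand in clusters, and several clusters are themselves covered by heterochromatin marks. USP15 removes ubiquitin from other proteins and is itself no zinc finger repressor of this kind.

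In the canonical transcripts, 188 of the 231 genes held a KRAB A box match ahead of the fingers, 41 held none and 2 had no annotated coding sequence. The number of fingers ranged from 1 to 36 with a median of 12. ZIK1 (ENSG00000171649) had 9 fingers in 487 residues, ZNF416 (ENSG00000083817) 11 in 594 and ZNF850 (ENSG00000267041) 29 in 1090. To show the repeated unit that makes these RNAs alike, 1 finger of each of the 3 genes that led to the choice of the family is given below as coding sequence on hg38, 5′ to 3′, with the codons of the zinc-binding cysteines and histidines in capitals. They are finger 5 of ZIK1 (chr19:57590868-57590951, plus strand), finger 4 of ZNF416 (chr19:57572755-57572838, minus strand) and finger 15 of ZNF850 (chr19:36749018-36749101, minus strand).
ZIK1: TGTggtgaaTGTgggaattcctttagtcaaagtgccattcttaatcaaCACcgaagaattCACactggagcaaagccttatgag
ZNF416: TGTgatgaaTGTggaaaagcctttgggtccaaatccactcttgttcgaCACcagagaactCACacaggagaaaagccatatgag
ZNF850: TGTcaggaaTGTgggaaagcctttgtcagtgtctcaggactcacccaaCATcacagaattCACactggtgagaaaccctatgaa

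Such repeats matter for the counts. Stretches of 31 bases that also occur in any transcript of another gene made up a median of 10.8% of a family member's canonical transcript and up to 95.7%. Reads from them could be dropped or split between paralogs or between overlapping gene models, which were not told apart here. The share was 3.27% for ZIK1, 1.43% for ZNF416 and 13.7% for ZNF850. ZIK1 (57578456 to 57593777, plus strand) and ZNF416 (57571566 to 57578927, minus strand) are neighbours on chromosome 19, and the spans of their gene models share 472 bases. Whether exons of both genes lie in this stretch was not checked. If they do, reads there cannot be assigned to 1 gene unless strand was used, and the use of strand is not given in the sources used here. ZNF850 (36714383 to 36772825, minus strand) lies in another cluster.

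The start regions of the family had features in common. RefSeq promoters (GRCh38.p14, 250 bases before to 50 after the start) were found for 203 of the 231 genes, with 246 start sites in all. The ETS letters CCGGAAG, searched on both strands, were in 39.4% of the family's promoters and in 10.3% of the 35116 promoters of all genes. The SP1 letters GGGCGG were in 65.0% against 45.0%, CCAAT in 49.2% against 34.6%, the YY1 letters AAGATGGC in 5.69% against 2.89%, the NRF1 letters GCATGCGC in 4.47% against 3.05% and TATAAA in 2.44% against 11.5%. The family's promoters held a median of 20 CpG pairs, and all promoters a median of 14. Shown here are the promoters of ZIK1 (chr19:57583895-57584194, plus strand), ZNF416 (chr19:57578862-57579161, minus strand) and ZNF850 (chr19:36772758-36773057, minus strand), and those of the genes with the largest increase and decrease in KBM7 below, ZNF347 (chr19:53159004-53159303, minus strand) and ZNF358 (chr19:7515853-7516152, plus strand), read 5′ to 3′ along the gene with every match to 1 of these motifs in capitals.
ZIK1: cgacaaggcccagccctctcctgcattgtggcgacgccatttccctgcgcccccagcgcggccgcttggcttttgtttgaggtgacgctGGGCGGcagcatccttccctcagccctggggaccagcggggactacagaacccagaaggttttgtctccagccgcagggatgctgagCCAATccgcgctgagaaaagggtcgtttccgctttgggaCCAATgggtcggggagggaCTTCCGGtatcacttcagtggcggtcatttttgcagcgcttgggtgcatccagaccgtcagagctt
ZNF416: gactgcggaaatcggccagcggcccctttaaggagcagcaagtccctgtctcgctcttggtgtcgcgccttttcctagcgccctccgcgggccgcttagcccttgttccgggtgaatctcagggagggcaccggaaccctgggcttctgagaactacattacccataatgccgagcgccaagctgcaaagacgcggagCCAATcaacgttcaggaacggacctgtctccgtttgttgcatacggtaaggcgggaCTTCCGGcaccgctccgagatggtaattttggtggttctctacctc
ZNF850: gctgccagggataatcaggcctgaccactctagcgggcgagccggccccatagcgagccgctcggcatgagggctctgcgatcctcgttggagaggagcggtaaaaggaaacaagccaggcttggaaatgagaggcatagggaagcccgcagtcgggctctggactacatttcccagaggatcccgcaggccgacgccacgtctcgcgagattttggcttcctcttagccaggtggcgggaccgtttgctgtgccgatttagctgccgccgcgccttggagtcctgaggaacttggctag
ZNF347: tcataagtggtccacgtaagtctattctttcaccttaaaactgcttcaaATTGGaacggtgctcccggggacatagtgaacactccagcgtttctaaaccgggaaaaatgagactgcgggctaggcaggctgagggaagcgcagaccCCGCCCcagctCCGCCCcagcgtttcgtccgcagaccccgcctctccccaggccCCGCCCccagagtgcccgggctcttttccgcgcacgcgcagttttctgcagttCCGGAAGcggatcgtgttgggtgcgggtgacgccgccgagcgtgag
ZNF358: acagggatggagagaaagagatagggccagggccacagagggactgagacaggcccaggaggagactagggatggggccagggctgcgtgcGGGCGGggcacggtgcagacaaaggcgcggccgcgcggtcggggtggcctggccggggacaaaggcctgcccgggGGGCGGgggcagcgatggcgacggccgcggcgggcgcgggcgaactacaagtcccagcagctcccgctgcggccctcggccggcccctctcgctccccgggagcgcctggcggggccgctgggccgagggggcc

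The ETS letters stood 16 bases before the start in ZIK1 and at position 5 after it in both ZNF416 and ZNF347. ZIK1 and ZNF416 also held CCAAT before the start, ZNF358 held SP1 letters only, and ZNF850 held none of the 6 motifs. A match describes the letters and is not a site of binding.

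Between 23450607 and 29441118 reads were counted per KBM7 library, and between 23020401 and 43566543 per K562 library. USP15 RNA fell in both lines. In KBM7 it had 212.8 ± 4.28 normalized CPM (counts scaled to a common library size with TMM factors) with siCtrl and 113.6 ± 0.846 with siUSP15 (SD, n = 2 each), or 53.4% of the control. In K562 it had 303.8 ± 38.6 and 159.8 ± 40.9 (SD, n = 4 each), or 52.6%. An exact 2-sided permutation test gave p = 0.0286, the smallest that 4 against 4 libraries allow. That permutation ran over all K562 libraries without regard to the 2 sets described next, and the SDs include any gap between these sets. By set, the log2 fold change of USP15 was -1.11 in replicates 1 and 2 and -0.79 in replicates 3 and 4. In K562, replicates 1 and 2 stood apart from replicates 3 and 4 and are treated as 2 sets, with 4.34% to 4.94% of counts in mitochondrially encoded genes in the first set and 2.91% to 2.96% in the second, and no source says what sets them apart. Of the erythroid markers, the fetal globin gene HBG1 was at 381.1 to 541.3 CPM in K562 and at 0.310 CPM or less in KBM7, and PTPRC, the leukocyte antigen CD45, was at 450.7 to 486.3 CPM in KBM7.

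In KBM7, which the choice of the family did not use, the zinc finger genes of chromosome 19 were shifted upwards with siUSP15. Of the 231 genes, 195 passed the filter on low counts and were tested, and 47 rose while 3 fell. These are 24.1% and 1.54% of the family members tested, against 13.2% of all 14980 genes that rose and 15.8% that fell. The median log2 fold change was 0.14 for the family and 0.00 for all genes, and 149 of the 195 values were above 0. Among zinc finger genes of the same name pattern on other chromosomes, 35 of 222 rose and 33 fell, with a median of -0.04. Among the other protein-coding genes of chromosome 19, 76 of 761 rose and 145 fell, with a median of -0.06. The medians of both other classes lay below 0, and the difference between the classes was not tested.

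The test was edgeR's quasi-likelihood test with Benjamini-Hochberg adjustment over all genes. The count of increases rested on the siCtrl libraries. It was 17 without siCtrl replicate 1, with 6.42% of all genes called higher, and 29 without siCtrl replicate 2, with 7.80%, where the lone siCtrl library is assumed to vary like the siUSP15 pair. DESeq2 called 20 higher and 1 lower, with 7.19% and 9.87% of all genes. The median of the family stayed between 0.13 and 0.17 in all 4 fits that left out 1 library. ZNF347 and ZNF575 passed the filter through their siUSP15 libraries and 1 member through its siCtrl libraries. Among the 188 members over the count minimum in both groups, 46 rose and 3 fell.

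**Figure D1:**
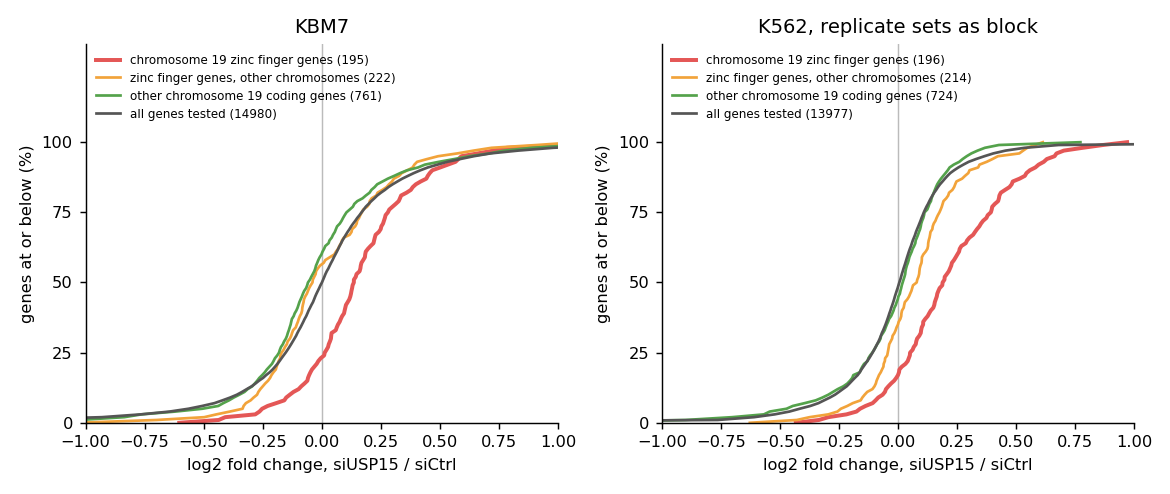
Cumulative share of genes (y axis, %) at or below each log2 fold change of siUSP15 against siCtrl (x axis) in KBM7 (left) and in K562 (right, fit with the replicate sets as a block), for the chromosome 19 zinc finger genes, zinc finger genes elsewhere, other chromosome 19 genes and all genes tested, with gene numbers in the legend. The family's curve lies to the right of the others over most of its range, with a median of 0.14 in KBM7 and 0.19 in K562, where the family was chosen.

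The libraries of the 2 KBM7 groups did not overlap for 114 of the tested members in the upward direction, against 32.9% of all genes, and for 21 in the downward direction, against 33.6%. The summed level of the 231 genes was 3001 and 3051 CPM in the siCtrl libraries and 3250 and 3295 in the siUSP15 libraries. The family therefore made up a small and slightly larger part of the RNA with siUSP15, and the libraries of a pair lay closer to each other than to the other pair.

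The largest increases in KBM7 included genes of very low level in this line. ZNF347, a KRAB gene with 17 fingers, had 0.207 and 0.212 CPM with siCtrl, which is 6 and 5 counts, and 0.595 and 0.718 CPM with siUSP15, or 17 counts in each library (log2 fold change 1.62 ± 0.41 SE). It was over the count filter in its siUSP15 libraries only, so a difference was built into its selection and its p is not given. ZIK1, a KRAB repressor known to bind the nuclear protein HNRNPK, had 0.482 and 0.423 CPM with siCtrl and 0.980 and 1.22 with siUSP15 (1.25 ± 0.31 SE, adjusted p = 0.0113). ZNF841 had 0.448 and 0.677 CPM and then 0.945 and 1.35 (1.03 ± 0.33 SE, adjusted p = 0.0363). In all 3 genes both siUSP15 libraries lay above both siCtrl libraries, but each kept its call in only 1 of the 4 fits that left out a library, with adjusted p by edgeR up to 0.0838 for ZIK1 and 0.285 for ZNF841.

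Genes of higher level gave steadier values. ZNF738 had 7.75 and 8.00 CPM with siCtrl and 13.3 and 13.2 with siUSP15 (log2 fold change 0.75 ± 0.10 SE, adjusted p = 0.000189). ZNF329, which has 12 fingers and no KRAB match, had 3.997 and 4.83 and then 8.09 and 7.39 CPM (0.82 ± 0.14 SE, adjusted p = 0.00104). ZNF461 had 4.62 and 4.53 and then 7.42 and 7.47 CPM (0.70 ± 0.13 SE, adjusted p = 0.00152). ZNF682 had 4.86 and 4.87 and then 7.003 and 7.68 CPM (0.59 ± 0.13 SE, adjusted p = 0.00495). In these 4 genes the gap between the groups was wider than the gap within either, and the calls held whichever library was left out. ZNF471, ZNF28 and ZNF442 completed the 10 largest increases with log2 fold changes of 0.78, 0.59 and 0.58, and lost their calls in 2, 1 and 2 of the 4 left-out fits.

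Over the 47 increases, the log2 fold change ranged from 0.18 to 1.62 with a median of 0.40. The call held in every left-out fit for 14 of them, which were chosen after their values were seen: ZNF329, ZNF738, ZNF461, ZNF682, ZNF544, ZNF583, ZNF136, ZNF441, ZNF331, ZNF788, ZNF83, ZNF350, ZNF569 and ZNF766. ZNF331, an imprinted gene in some tissues, was the most abundant of them in counts, with 36.4 ± 5.39 CPM with siCtrl and 51.8 ± 1.98 with siUSP15 (SD, n = 2 each). ZNF350, also known as ZBRK1 for its work with BRCA1, had 9.91 ± 0.362 and 13.3 ± 0.254 CPM. ZNF136 had 12.6 ± 0.184 and 18.6 ± 0.196 CPM, so its mean moved by far more than either SD. Shared stretches of 31 bases made up 95.5% of the transcript of ZNF788, which had no annotated coding sequence, and 37.6% of that of ZNF738. The gene model of ZNF788 (12092263 to 12137235) overlaps that of ZNF20 (12092843 to 12140407), whose shared stretches made up 73.2%. Counts of ZNF788 and ZNF738 may therefore lack reads or hold reads of a paralog or an overlapping gene.

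Of the 195 tested members, 3 fell in KBM7. ZNF358 had 15.02 and 15.3 CPM with siCtrl and 10.96 and 8.87 with siUSP15 (log2 fold change -0.60 ± 0.11 SE, adjusted p = 0.00173), and its call held in all 4 left-out fits. ZNF555 had 10.6 and 11.3 and then 7.70 and 8.57 CPM (-0.43 ± 0.11 SE, adjusted p = 0.0116). ZNF792 had 10.1 and 10.6 and then 7.49 and 8.11 CPM (-0.41 ± 0.11 SE, adjusted p = 0.0145). The last 2 lost their calls in 2 and 3 of the 4 left-out fits.

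**Figure D2:**
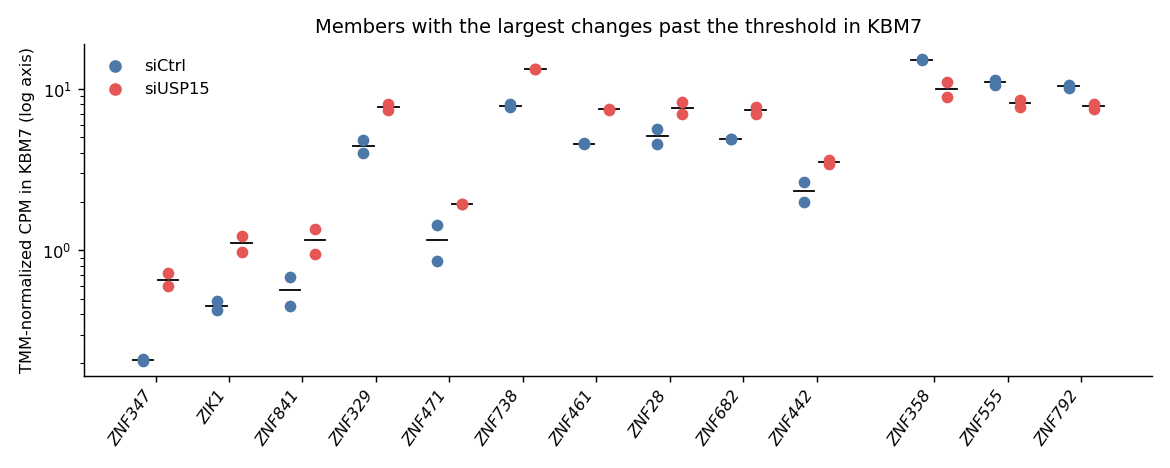
Normalized CPM on a log axis in the 4 KBM7 libraries for the 10 members with the largest increases and the 3 that fell, each dot 1 library and each bar the mean of 2 (siCtrl blue, siUSP15 red). In all 13 genes the groups do not overlap, and ZNF347, ZIK1 and ZNF841 start under 1 CPM with siCtrl.

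Members with a KRAB domain made up most of the tested family and a like share of the increases in KBM7. Among all genes tested in KBM7, 13.2% rose and 15.8% fell. Of 158 tested genes with a KRAB A box match, 40 rose and 2 fell, with a median log2 fold change of 0.16. Of 36 without one, 6 rose and 1 fell, with a median of -0.04, but these split by base composition. The 14 with a transcript GC content under 50% had a median of 0.13 with 6 increases, and the 22 with 50% or more had a median of -0.14 and 1 call, a decrease. The difference between KRAB and other members was not tested, and GC content moved with it, at a median of 42.0% in members with and 57.8% in members without a match. Over all genes tested in KBM7, the log2 fold change correlated with GC content at r = -0.02, across genes, which are not independent. With a correction for GC content, added after the data had been seen, 50 members rose and 4 fell.

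Members also differed by promoter letters and by cluster in KBM7. Of 80 tested members with the ETS letters in a promoter, 26 rose, and of 94 with a promoter that lacked them 16 rose, with medians of 0.17 and 0.10. All 3 members that fell were among the latter. Another 21 tested members had no promoter in the RefSeq set, and 5 of them rose, with a median of 0.19, above that of the members with the letters. Of 94 members with 13 fingers or more, 26 rose, and of 100 with 12 or fewer, 20 rose. Members with 20% or more of shared 31-base stretches rose in 9 of 51 cases and the rest in 38 of 144, with a median of 0.14 and 0.13. The share of all genes that rose in KBM7 was 13.2%. In K562 the medians with and without the ETS letters were both 0.19. None of these differences was tested.

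With neighbouring members grouped when their starts lay under 500 kb apart, the family formed 19 clusters along the chromosome. In KBM7 the increases were spread over 12 of them. Cluster 17 (51.6 to 53.6 Mb of hg38, 35 genes from ZNF175 to ZNF331) had 11 increases among 29 tested and a median of 0.20, and cluster 19 (57.2 to 58.5 Mb, 43 genes from ZNF264 to ZNF446) had 13 among 39 and a median of 0.19. Cluster 10 (36.2 to 37.8 Mb, 26 genes), which holds ZNF850, had 4 among 21 and a median of 0.15. Cluster 13 (43.5 to 44.5 Mb, 21 genes) had 1 among 20 although its median was 0.14. Cluster 18 (55.5 to 56.7 Mb, 16 genes), in which only 6 genes held a KRAB match and the median GC content was 63.3%, had 2 among 14 and a median of -0.09.

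Other RNAs moved in the same KBM7 libraries. Of 7 erythroid and megakaryocytic markers, 4 could be tested and all 4 fell, among them GATA1, a master regulator of the erythroid lineage. Over all genes, 13.2% rose and 15.8% fell. Of the 4 markers, 1 was over the count filter in its siCtrl libraries only, so a difference was built into its selection. The summed level of the 7 markers went from 282.2 to 300.0 CPM with siCtrl to 183.7 to 202.7 with siUSP15, while HBG1 and HBZ were at 0.339 CPM or less. Of 5 myeloid markers, 4 rose and 1 fell, and their summed level was 123.5 to 127.9 CPM with siCtrl and 138.2 to 140.4 with siUSP15. Among those that rose, CSF3R was over the count filter in its siUSP15 libraries only, so a difference was built into its selection. MPO, the granule enzyme myeloperoxidase, rose by 1.54 on the log2 scale from 6.08 CPM with siCtrl. CD33, the marker that fell, had the highest level of the 5, at 95.6 CPM with siCtrl and 80.9 with siUSP15. Its log2 fold change was -0.24 ± 0.05 SE (edgeR adjusted p = 0.00348). Of the other lists, PTPRC, SPI1, RUNX1 and LMO2, which mark blood cells in general, gave 1 increase and 1 decrease, and 1 T cell marker (CD3D) and 1 epithelial marker (KRT18) fell, while no B cell or fibroblast marker passed the test. The part of these changes in the family's values was not tested.

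Of the 25 corepressors and chromatin factors known to work with KRAB proteins, 14 fell in KBM7, where 15.8% of all genes fell. The median log2 fold change of the 25 was -0.14, and 22 values were below 0. None rose by edgeR or DESeq2, and 1 was higher at an unadjusted edgeR p under 0.05. The 14 decreases became 10 with DESeq2, 4 and 7 without siCtrl replicate 1 or 2, and 9 and 15 without siUSP15 replicate 1 or 2. TRIM28, the corepressor that KRAB domains bind, did not pass the test, at 597.3 CPM with siCtrl and 586.7 with siUSP15 (log2 fold change -0.03 ± 0.04 SE, adjusted p = 0.694). SETDB1, which adds the repressive methyl marks on histone H3, was at 76.0 and 80.7 CPM (0.08 ± 0.05 SE, adjusted p = 0.243). Those that fell included TRIM24 (-0.60 ± 0.06 SE, adjusted p = 3.69e-05), a relative of TRIM28, and DAXX (-0.39 ± 0.05 SE, adjusted p = 7.81e-05) and ATRX (-0.30 ± 0.05 SE, adjusted p = 0.00144), which together place histone H3.3. The heterochromatin proteins CBX1 and CBX5 fell by 0.28 and 0.22 on the log2 scale, and CBX3 was at -0.09 with adjusted p = 0.183. In K562 2 of the 25 were called higher, DNMT1 at 0.16 and CHD4 at 0.12, a share near the 7.06% of all genes called higher there, and the median of the list was 0.03. This count was 0 with no block and without siCtrl replicate 1, siCtrl replicate 2 or siUSP15 replicate 1, where 0, 5, 4 and 7 were higher at an unadjusted edgeR p under 0.05, and it was 4 with DESeq2, 6 without siUSP15 replicate 4 and 8 in replicates 1 and 2 alone.

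ZNF850, ZNF416 and ZIK1, the genes that led to the family, differed among themselves in KBM7. ZIK1 rose, as above. ZNF416 had 5.996 and 7.66 CPM with siCtrl and 7.53 and 8.32 with siUSP15, so the groups overlapped (log2 fold change 0.22 ± 0.14 SE, adjusted p = 0.256). ZNF850 had 22.1 CPM in both siCtrl libraries and 22.2 and 22.3 with siUSP15 (0.01 ± 0.07 SE, adjusted p = 0.918). ZNF850 had 523 to 640 counts in each KBM7 library.

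In K562, these 3 genes gave the values from which the family was picked. ZIK1 had 1.85, 1.91, 1.88 and 1.77 CPM in siCtrl replicates 1 to 4 and 5.09, 5.46, 2.22 and 2.21 in siUSP15 replicates 1 to 4. ZNF416 had 1.90, 2.24, 3.24 and 2.42 with siCtrl and 5.25, 5.89, 3.28 and 3.57 with siUSP15. ZNF850 had 16.98, 17.7, 24.1 and 24.2 with siCtrl and 37.1, 35.6, 34.3 and 33.95 with siUSP15. All siUSP15 libraries lay above all siCtrl libraries in these 3 genes, but in ZIK1 and ZNF416 most of the gap was in replicates 1 and 2. Their log2 fold changes were 1.496, 1.44 and 1.06 for ZIK1, ZNF416 and ZNF850 in replicates 1 and 2 and 0.28, 0.27 and 0.50 in replicates 3 and 4.

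**Figure D3:**
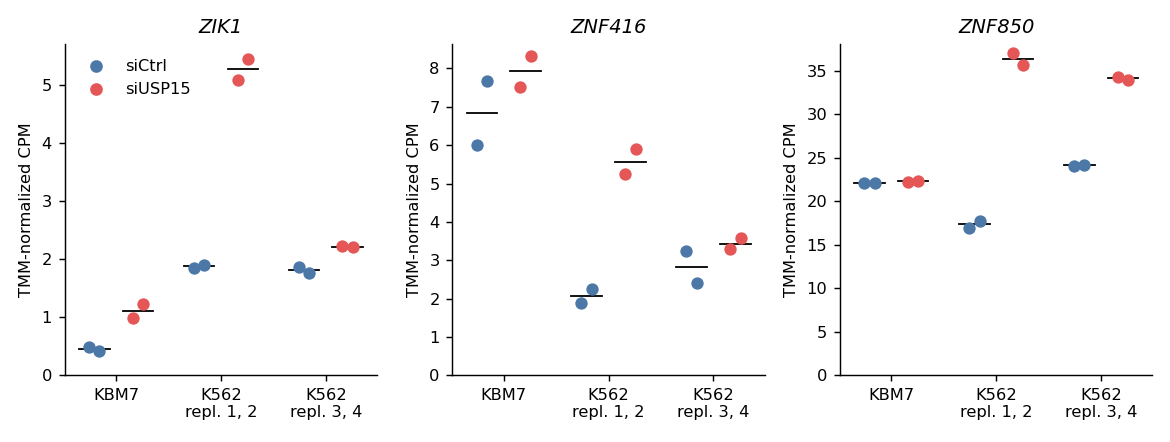
Normalized CPM (y axis, from 0) of ZIK1, ZNF416 and ZNF850 in all 12 libraries, each dot 1 library and each bar the mean of 2, for KBM7 and for K562 replicates 1 and 2 and replicates 3 and 4 (siCtrl blue, siUSP15 red). ZNF850 lies near 22 CPM in all 4 KBM7 libraries and between 33.95 and 37.1 CPM in the K562 siUSP15 libraries.

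Over the family in K562, 196 genes passed the filter, 5 of them through their siUSP15 libraries alone. With the sets as a block, 59 were called higher and 3 lower, where 7.06% and 8.48% of all 13977 genes were, and since the family was picked from this contrast nothing is read from these counts. The median log2 fold change was 0.19 with the block, 0.29 in replicates 1 and 2 (167 of 196 above 0) and 0.08 in replicates 3 and 4 (139 of 193 above 0). With each replicate number as a block, 29 were called higher and 1 lower, and with no block none was, although 51 of 193 had an unadjusted edgeR p under 0.05, all of them higher. Zinc finger genes of other chromosomes had a median of 0.08 with the sets as a block, and other chromosome 19 genes 0.02. USP15 itself was at -1.11 in replicates 1 and 2 and at -0.79 in replicates 3 and 4. The part of this in the family's gap between the sets was not tested.

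Besides ZIK1, ZNF416 and ZNF850, the highest blocked values in K562 belonged to ZNF285 (0.88), ZNF528 (0.85), ZNF233 (0.75), ZNF208 (0.69) and ZNF540 (0.69). The lowest belonged to ZNF568 (-0.43), ZNF44 (-0.37), ZNF799 (-0.33), ZNF554 (-0.33), ZNF792 (-0.29), ZNF846 (-0.24), ZNF665 (-0.21) and ZNF558 (-0.21). Among the highest, ZNF208 had 6 to 9 counts in the siCtrl libraries and 10 to 17 in the siUSP15 libraries. It was over the count filter only in siUSP15 libraries, so a difference was built into its selection. ZNF233 was also low, at 5 to 21 counts with siCtrl and 11 to 50 with siUSP15. ZNF792 was below 0 in both K562 sets, at -0.26 and -0.34, and fell in KBM7. ZNF44 and ZNF558 were below 0 in both K562 sets and rose in KBM7 by 0.46 and 0.33 on the log2 scale (adjusted p = 0.00518 and 0.00475), and the difference between the lines was not tested.

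Neighbours of the 3 genes were above 0 in K562 replicates 1 and 2, and some of them rose in KBM7. Next to ZNF850, ZNF567 was at 0.85 in K562 replicates 1 and 2 and 0.22 in replicates 3 and 4, and it rose in KBM7 (0.39 ± 0.09 SE, adjusted p = 0.00771), a call lost in 1 of 4 left-out fits. ZNF461, which rose in KBM7 as given above, was at 0.53 and -0.13 in the K562 sets. On the other flank ZNF790 was at 0.54 and 0.16 in the K562 sets and at 0.18 in KBM7 (adjusted p = 0.161), and ZNF345 was at 0.71 and 0.22 in the K562 sets and at 0.12 in KBM7 (adjusted p = 0.425). Around ZNF416 and ZIK1, ZNF549, ZNF530 and ZNF134 rose in KBM7 by 0.31, 0.27 and 0.23 on the log2 scale (adjusted p = 0.018, 0.0382 and 0.0173), and ZNF550 was at 0.10 (adjusted p = 0.361). ZNF530 lost its call in all 4 left-out fits, and ZNF549 and ZNF134 lost theirs in 2 of 4. In K562 replicates 1 and 2, ZNF549, ZNF530, ZNF134 and ZNF550 were at 0.89, 0.86, 0.88 and 0.57, and in replicates 3 and 4 at 0.01, 0.36, 0.24 and 0.19.

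Of the 177 members tested in both lines, 44 rose in KBM7 and 56 were called higher in K562. Since the K562 calls come from the contrast that picked the family, nothing is read from the overlap of these lists. Among genes named above, ZIK1 was at 1.25 in KBM7 and 0.97 in K562 in log2 fold change, ZNF329 at 0.82 and 0.41, and ZNF461 at 0.70 and 0.22. ZNF442 went opposite ways, at 0.58 and -0.17. ZNF441 and ZNF83, at 0.54 and 0.44 in KBM7, were below 0 in both K562 sets. Over the 177 members, 117 were above 0 in both lines and 13 below 0 in both. The log2 fold changes of the lines correlated at r = 0.24 across these genes, which are not independent.

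With siCtrl alone the 2 lines used partly different members. These libraries also serve as controls above, and the lines were counted in separate tables, so line and table cannot be told apart. A mean of 1 CPM or more was found for 158 members in both lines, for 20 in KBM7 only and for 19 in K562 only, and 34 were under 1 CPM in both. Of 209 members tested, 73 were higher in KBM7 and 62 in K562, which is 34.9% and 29.7%, against 36.3% and 34.9% of all 15375 genes. ZNF850 was at nearly the same level in both lines, with a log2 difference of -0.04 ± 0.18 SE (adjusted p = 0.838). ZNF416 was higher in KBM7 by 1.34 ± 0.24 SE (adjusted p = 0.00191), and ZIK1 was lower there by a log2 difference of -2.15 ± 0.21 SE (adjusted p = 0.000113).

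Several members were close to absent in 1 line. ZNF470 had 354 and 285 counts in the KBM7 siCtrl libraries and 0 in all 4 of K562, at least 378-fold higher in KBM7 when K562 is set to 3 counts over the group. ZNF71, ZNF730, ZNF492 and ZNF682 had 4.86 to 11.9 CPM in the KBM7 siCtrl libraries and 0.169 CPM or less in those of K562. In the other direction ZNF257 had 0 counts in both KBM7 siCtrl libraries and 122 to 180 in K562, at least 114-fold higher in K562 by the same floor. ZNF714 and ZNF320 had 42.4 to 48.3 CPM in K562 and 0.296 or less in KBM7, and ZNF430 and ZNF253 had 12.3 to 18.5 and 0.0423 or less. ZNF730, ZNF492, ZNF257, ZNF714 and ZNF430 all lie in cluster 7 (20.5 to 24.1 Mb), so members of 1 cluster differed between the lines in opposite directions. All 10 genes were over the count filter only in the line where they were high. A difference was therefore built into their selection, and their p is not given.

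**Figure D4:**
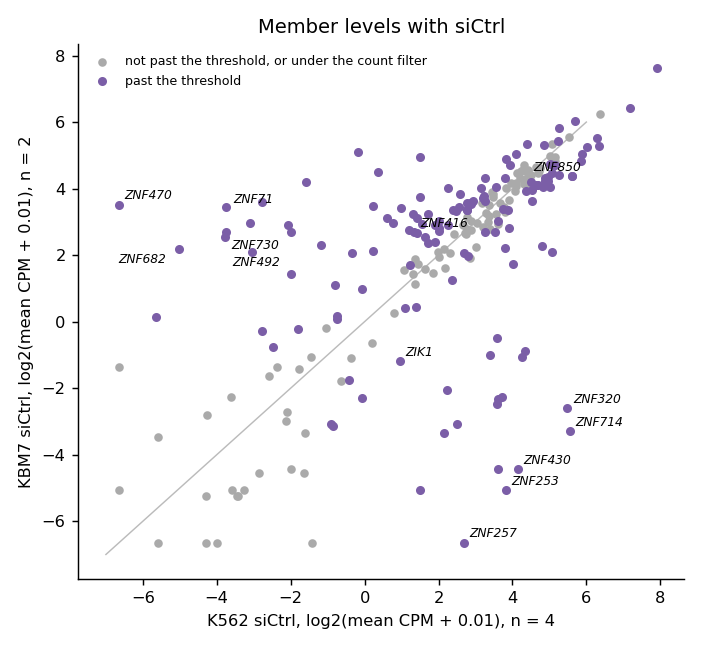
Mean siCtrl level of each of the 231 members in K562 (x axis, n = 4) and KBM7 (y axis, n = 2), as log2 of CPM plus 0.01, with members past the threshold in purple and the diagonal marking equal levels. ZNF850 lies on the diagonal, ZNF470 and ZNF682 lie at the upper left and ZNF714 and ZNF320 at the lower right.

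Levels of members also differed between the K562 sets in a fit with a term for the siRNA and a term for the set. In it 49 of 196 were higher in replicates 3 and 4 and 54 lower, against 27.3% and 28.9% of all genes, so the family was near the background in both directions. The largest differences upwards were in ZNF460 (0.93 ± 0.18 SE, adjusted p = 0.000932), ZNF582 (0.80 ± 0.17 SE, adjusted p = 0.00168) and ZNF628 (0.78 ± 0.07 SE, adjusted p = 2.78e-06). The largest downwards were in ZNF284 (-2.003 ± 0.42 SE), ZNF829 (-1.61 ± 0.32 SE) and ZNF155 (-1.43 ± 0.27 SE, adjusted p = 0.000862), all of them at 1.44 CPM or less in every K562 library. ZNF284 and ZNF829 were over the count filter only in libraries of replicates 1 and 2. A difference was therefore built into their selection, and their p is not given. Such a fit averages over the siRNAs, and the gap need not be alike in both. ZIK1 passed the test of the set (-0.78, adjusted p = 0.00601), while its siCtrl libraries were alike in both sets and its siUSP15 libraries were not. The summed level of the family was 2908 and 2930 CPM in siCtrl replicates 1 and 2 and 3301 and 3284 in replicates 3 and 4, while the siUSP15 libraries lay between 3443 and 3488 in both sets. In summed level the sets therefore differed in the siCtrl libraries.

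Across the 12 libraries, the members most like ZIK1 in log2 CPM were ZNF616 (Pearson r = 0.95), ZNF559, ZNF607, ZNF30 and ZNF611. Those most like ZNF416 were ZNF260 (r = 0.96), ZNF285, ZNF548, ZNF224 and ZNF530, and those most like ZNF850 were ZNF614 (r = 0.91), ZNF543, ZNF577, ZNF749 and ZNF551. These values describe likeness over libraries that share a line or a set, so a gap between KBM7 and K562 enters all of them.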

How the data were processed

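RNA-seq of 12 libraries was analysed (KBM7, 2 siCtrl and 2 siUSP15; K562, 4 and 4). Per the labels and the study's methods, the authors aligned reads to hg38 with TopHat2 2.1.0 and deposited whole-number counts per gene (HTSeq per the labels), 1 table a line. The deposited log2 columns (12) and the columns of the authors' own fold changes and p-values were not used. Depth was between 23450607 and 29441118 counts per KBM7 library and between 23020401 and 43566543 per K562 library, and reads carry no molecular identifiers.

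Members, gene lists and tests were chosen with earlier results of these data known. Raw counts of all genes were filtered (filterByExpr, minimum count 10), given TMM factors, and fitted with edgeR 4.0.16 (R 4.3.3), whose quasi-likelihood F-test was used 2-sided at 0.05 after Benjamini-Hochberg adjustment over all genes. KBM7 was fitted without covariates and K562 with the set (replicates 1 and 2, replicates 3 and 4) as a block. The deposited K562 counts are whole numbers, although their file is named as batch corrected, and no source used here names the batches. K562 libraries of the same replicate number deviated together (r of 0.695, 0.550, 0.653 and 0.606 from the group means, a value that includes the set difference), although 2 of the 4 numbers did not match best with their own, and library numbers in the K562 siUSP15 descriptions differ from the replicate numbers in the titles, which were used. A fit with the replicate number as a block is given beside the K562 counts. Levels in siCtrl were compared over genes of both tables. Alternatives were RLE scaling, no filter, DESeq2 1.42.0, limma-voom (limma 3.58.1), each library left out, other blocks and all 12 libraries in 1 fit. A correction for transcript GC content (lowess, span 0.3) was added after seeing the data. The tests were checked on simulated data.

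Named genes were ZNF850, ZNF416 and ZIK1 with their 2 nearest neighbours on each side, the 10 largest changes each way in KBM7 past the threshold with groups that did not overlap, the 8 highest and 8 lowest values in K562, the 5 largest differences each way in siCtrl level and the 3 each way between the sets. Fingers, KRAB A boxes and shared stretches of 31 bases were found in canonical transcripts, and promoter letters in RefSeq promoters. The values of 1 erythroid marker are not reported here.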

Additional observations from a re-analysis of the deposited data

Results flagged for a closer look

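In K562, groups of 4 libraries were checked for a library far from the other 3 (Dixon's test at the 95% level), and 6 of 100 groups of named members had one, where chance gives about 1 in 20. ZNF284 had 0.539 CPM in 1 siCtrl library and 0.154 to 0.211 in the others. ZNF471 had 0.0384 CPM in 1 siCtrl library, which is 1 count, and 0 in the others. ZNF730 had 0.109 CPM in 1 siUSP15 library and 0.0410 to 0.0457 in the others. ZNF738 had 5.28 CPM in 1 siCtrl library and 4.36 to 4.50 in the others. ZNF841 had 19.8 CPM in 1 siUSP15 library and 22.8 to 23.4 in the others. ZNF846 had 3.87 CPM in 1 siUSP15 library and 4.20 to 4.27 in the others.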

How the results depend on the processing

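In KBM7, the 47 increases became 20 with DESeq2, and with 1 library left out they ranged from 17 to 47 (19, 30, 37 and 44 with the GC correction, which was chosen after seeing the data). The 3 decreases became 6 with no filter, 1 with DESeq2 and 5 with a replicate block, and ranged from 1 to 7 with 1 library left out, with and without the GC correction. The KBM7 replicate numbers did not pair the libraries (r = 0.000978 over 2 pairs), and the replicate block gave 49 increases. In K562, the 59 members called higher became 29 with the replicate block, 32 with that block and the GC correction, 0 with no block, 98 in replicates 1 and 2 alone and 1 in replicates 3 and 4 alone, and ranged from 15 to 67 with 1 library left out. The 3 called lower became 1 with the replicate block, with and without the GC correction, 0 with no block, 5 in replicates 1 and 2 alone and 0 in replicates 3 and 4 alone, and ranged from 0 to 4 with 1 library left out. Of all genes, 17.3% were called higher and 17.1% lower in replicates 1 and 2 alone. In replicates 3 and 4 alone the shares of all genes were 1.03% and 0.978%. Where edgeR gave 0, the numbers at an unadjusted p under 0.05 were 51 higher and 0 lower with no block, 4 lower in replicates 3 and 4 alone and 5 lower without siCtrl replicate 2. With no block the log2 fold change of USP15 in K562 was -0.93 and no longer past edgeR's threshold. The cause of these changes was not tested. Of 225 values of 15 named results in KBM7 under the alternatives, 180 kept their side of the threshold, 45 lost it and 0 turned in direction. Counts for siCtrl levels and for the K562 sets stayed within 1.5 times under the alternatives run. Where 1 library stands for a group, its spread is borrowed from the remaining libraries. Depth limits members under 1 CPM, such as ZNF347 and ZIK1 in KBM7.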
